A study of Mus musculus with 2 samples.

Results

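The secreted Wnt antagonists are proteins outside the cell that hold Wnt signalling down. The 10 genes described here were chosen by name as Dkk1, Dkk2, Dkk3, Sfrp1, Sfrp2, Sfrp4, Frzb, Wif1, Sostdc1 and Notum, out of 18193 genes on the array with a probe set of 1 gene symbol. Earlier results of these data were known when these 10 genes were chosen. They have 18 of the 45101 probe sets, a probe set being the group of short probes that reads 1 transcript or set of transcripts. Every probe set that carries a member's symbol was used, and all 10 genes were measured on at least 1 array. The samples were 2 RNA preparations of primary mouse cells grown out of newborn skull roof bone (calvaria) and negative for CD11b, a myeloid surface protein. The labels used here name no genotype or strain and no treatment besides the culture medium. Both cultures received ascorbic acid at 50 µg/ml and β-glycerophosphate at 10 mM, which let collagen mature and mineral form, and they differ in time, with 1 array at day 5 and 1 at day 12. An undifferentiated culture was not analysed here, and the labels do not say how many animals were pooled.

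Wnt proteins bind a Frizzled receptor together with a coreceptor, LRP5 or LRP6, and the signal keeps β-catenin from being degraded so that it can act with TCF/LEF factors on target genes. In bone this signal promotes osteoblast formation and activity. Antagonists act at different steps. DKK1 and DKK2 occupy the LRP coreceptors and can use the Kremen proteins to clear them from the surface, while DKK3 is a divergent relative whose part in Wnt signalling is less settled. The secreted Frizzled-related proteins, SFRP1, SFRP2, SFRP4 and FRZB (also called SFRP3), carry a cysteine-rich domain like that of Frizzled receptors and bind Wnt proteins, as WIF1 does through a domain of its own. SOSTDC1 is a relative of sclerostin that binds LRP coreceptors and BMP proteins. NOTUM is an enzyme that cuts off the lipid Wnt proteins need for receptor binding.

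The antagonists split between the 2 days. By the brightest probe set of each gene, 4 of 10 had at least 2-fold more signal at day 12 (Dkk1, Wif1, Frzb and Sfrp4), 2 had at least 2-fold less (Sfrp1 and Sostdc1), and 4 lay between (Notum, Dkk2, Sfrp2 and Dkk3). Among all 10479 genes measured, 3.56% passed 2-fold upwards and 1.73% downwards. At 1.5-fold the members' counts were 5 up and 3 down, against 7.25% and 7.7% of all measured genes, and at 3-fold they were 2 and 0, against 1.67% and 0.344%. The median log2 ratio of day 12 over day 5 was 0.22 for the 10 members and -0.05 for all measured genes. The members' median lies in a wide gap between Dkk2 and Notum, and its sign depends on how dim values are treated: it was -0.25 with a higher floor, at the 75th percentile, and -0.38 over the 8 members above the floor on both arrays. The median size of the ratio regardless of direction was 1.41 on the log2 scale for the members and 0.23 for all measured genes. The members were chosen with earlier results of these data known, so the distance from the values of all genes is not a test. With 1 array a day there is no replicate error and no test, so each difference is one between these 2 arrays. In RNA from a whole culture, fewer cells of a type and less RNA per cell cannot be told apart.

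Signals are the deposited values on a linear scale. They are compared between days for the same probe set and not between genes, since probes differ in how well they bind. Values in the dim part of an array mostly reflect background. For each array the 60th percentile therefore served as a floor (46.6 for day 5, 44.8 for day 12), and lower values were raised to it before a ratio was taken. A ratio with 1 raised value is a bound, marked by the words "at least". Genes with more than 1 probe set offer a repeat reading of the same RNA. For 4446 such genes the log2 ratios of the 2 brightest measured ones differed by a median of 0.17, with a 95th percentile of 0.66. That spread covers probes and not cultures.

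Sequences just upstream of the start were at hand for 5 of the 10 members, Dkk1, Dkk2, Sfrp2, Frzb and Wif1, in a table of RefSeq promoters on the mouse assembly GRCm38.p6. The windows of the 3 higher genes among them are printed, together with that of Dkk2, the relative of Dkk1 that differed little between the days. Each holds the 250 bases before the annotated start, 5′ to 3′ on the strand of the gene. Capitals mark matches on either strand to 4 short motifs. CTTTGA (reverse TCAAAG) is a core bound by TCF/LEF factors, and TGTGGT (reverse ACCACA) is a core bound by RUNX factors. ACGTG (reverse CACGT) is a form of the core of hypoxia response elements, and other forms of that core were not searched. TATAAA (reverse TTTATA) is the core of the TATA box, and it was searched at any position in the window. The windows are Dkk1 at chr19:30549497-30549746 (minus strand), Wif1 at chr10:121033754-121034003 (plus strand), Frzb at chr2:80447397-80447646 (minus strand) and Dkk2 at chr3:132085042-132085291 (plus strand).
Dkk1: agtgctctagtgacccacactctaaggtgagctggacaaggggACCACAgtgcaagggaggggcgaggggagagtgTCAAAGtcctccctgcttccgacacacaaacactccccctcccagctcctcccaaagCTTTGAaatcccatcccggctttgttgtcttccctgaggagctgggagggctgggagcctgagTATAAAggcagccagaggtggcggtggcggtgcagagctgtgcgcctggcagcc
Wif1: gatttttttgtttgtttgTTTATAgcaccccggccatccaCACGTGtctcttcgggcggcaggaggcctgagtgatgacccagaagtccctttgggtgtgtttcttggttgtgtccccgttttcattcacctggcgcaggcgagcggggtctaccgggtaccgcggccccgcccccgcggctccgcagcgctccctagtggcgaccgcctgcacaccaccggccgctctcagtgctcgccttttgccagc
Frzb: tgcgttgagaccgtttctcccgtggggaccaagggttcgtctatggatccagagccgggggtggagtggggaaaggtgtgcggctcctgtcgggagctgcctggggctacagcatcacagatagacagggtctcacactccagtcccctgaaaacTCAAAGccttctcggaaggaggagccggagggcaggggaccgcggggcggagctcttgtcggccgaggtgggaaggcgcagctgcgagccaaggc
Dkk2: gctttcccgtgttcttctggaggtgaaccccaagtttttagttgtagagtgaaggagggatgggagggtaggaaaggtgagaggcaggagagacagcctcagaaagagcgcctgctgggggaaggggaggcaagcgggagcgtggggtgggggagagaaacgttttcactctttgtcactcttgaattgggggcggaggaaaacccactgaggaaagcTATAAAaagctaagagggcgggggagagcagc

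The Dkk1 window held 2 matches to the TCF/LEF core, 1 on each strand, at 112 to 117 and at 169 to 174 bases before the start. It also held 1 match to the RUNX core at 202 to 207 bases and the letters TATAAA at 49 to 54 bases. The Frzb window held 1 match to the TCF/LEF core, at 90 to 95 bases. In Wif1 the searched form of the hypoxia core, ACGTG, matched on both strands at overlapping bases, 205 to 210 before the start. These bases, CACGTG, read the same on both strands, so a match on either strand brings a match on the other. TTTATA lay at 227 to 232 bases. Dkk2 held TATAAA at 27 to 32 bases and no other match, and Sfrp2 held none of the 4. Of all 32851 windows of that length, 13.8% held the TCF/LEF core, 14.0% the RUNX core and 16.6% ACGTG or its reverse. TATAAA or its reverse was in 12.4% of them. No motif was shared by all 3 of the higher genes. A match describes letters in the window and is not evidence of binding.

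Dkk1, the coreceptor blocker, stood furthest from its day 5 value. Its brightest probe set read 14.5 at day 5, under the floor, and 685.1 at day 12. The other read 7.94 and 127.1. Both probe sets were below the floor at day 5 and well above it at day 12, so both ratios are bounds, at least 14.7-fold and at least 2.73-fold. The bounds differ because both start from the same floor value and the probe sets differ in day 12 signal, so the gap between them says nothing of how well the readings match. With the floor used here Dkk1 ranked 9 of 10479 genes in order of increase by its brightest probe set, a rank that rests on a bound and moves with the floor.

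The other Dickkopf genes were lower at day 12, by less than 2-fold. Dkk2 had a single probe set, reading 228.8 at day 5 and 191.8 at day 12, a log2 ratio of -0.25. Its ratio lies between the quartiles of all measured genes, -0.27 and 0.17. Dkk3 had signals of 2775 and 1594 in one probe set and 2317 and 1631 in the other. Both its probe sets were bright on both days and lower at day 12, with log2 ratios of -0.80 and -0.51. Of the measured genes, 3.38% had a ratio as low as that of the brighter Dkk3 probe set or lower.

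The 4 genes of the secreted Frizzled-related family went both ways, Frzb and Sfrp4 higher at day 12 and Sfrp1 and Sfrp2 lower. Frzb had signals of 179.4 at day 5 and 523.3 at day 12 in its brighter probe set, 2.92-fold higher. Its dimmer probe set read 37.8, under the floor, and 110.7, at least 2.37-fold higher. Both Frzb probe sets passed 2-fold, the dimmer one as a bound. Sfrp4, read by 1 probe set, had signals of 98.7 and 273.1, 2.77-fold higher. It lies close enough to the floor for the setting to matter: raising the floor to the 75th percentile took its log2 ratio from 1.47 to 0.59.

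Sfrp1 is the member with the most repeat reading, at 5 probe sets, all lower at day 12. The brightest went from 1157 to 428.2, the next from 741.9 to 266.2 and another from 575.3 to 200.1, which is 2.70-fold, 2.79-fold and 2.87-fold lower. The other pair went from 556.7 to 289.0 and from 213.7 to 115.8, which is 1.93-fold and 1.85-fold lower. The second of these carries the ending of probe sets that may also bind other transcripts. So 3 of the 5 passed 2-fold and the log2 ratios ran from -1.52 to -0.88. Sfrp1 ranked 53 of 10479 genes in order of decrease. Sfrp2, also read by 1 probe set, was bright on both days at 5809 and 4083, a log2 ratio of -0.51, and signals near the top of an array's range, which reached 15422 and 16944 here, can be compressed.

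Wif1, the Wnt-binding inhibitor, had signals of 150.9 at day 5 and 597.1 at day 12, 3.96-fold higher and above the floor on both arrays. It was the member with the highest ratio that is not a bound. Its single probe set is of the kind that reads several transcripts of 1 gene. Sostdc1, the BMP and LRP binder, went from 358.3 to 136.6 in one probe set and from 143.3 to 53.2 in the other, 2.62-fold and 2.70-fold lower. These 2 readings differ by 0.04 on the log2 scale, and only 13.7% of the 4446 genes had a closer pair, though the dimmer one at day 12 is close to the floor. Notum, the Wnt deacylase, was near the floor throughout, at 40.2 and 75.4, which gives at least 1.62-fold and does not reach the 2-fold threshold.

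**Figure D1:**
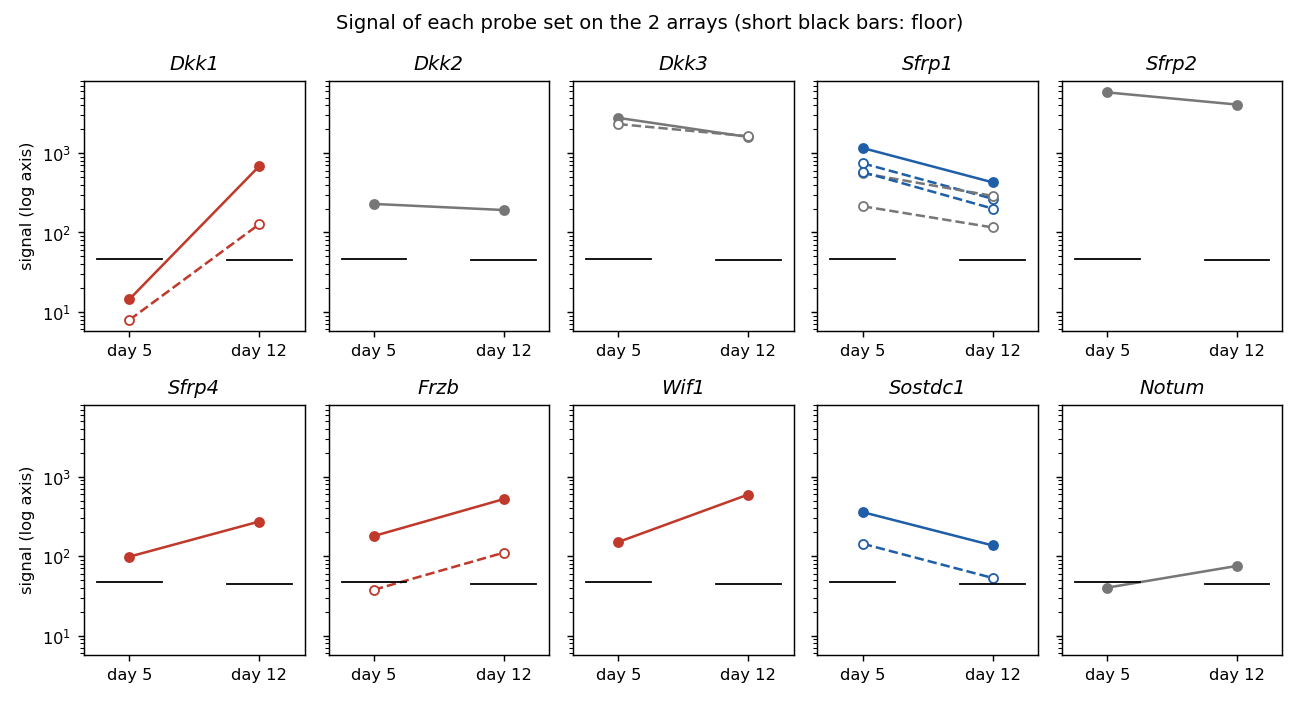
Signal (log axis) of every probe set of the 10 genes on the day 5 and day 12 arrays, with the brightest probe set of each gene as filled points and solid lines, the others as open points and dashed lines, and short black bars for the floor of each array (46.6 and 44.8). Red marks probe sets at least 2-fold higher at day 12, blue at least 2-fold lower and grey those between; both Dkk1 lines start below the floor, and all 5 Sfrp1 lines fall.

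Taken over probe sets in place of genes, 6 of the 18 passed 2-fold upwards at day 12, 5 downwards and 7 in neither direction. Among all 17431 measured probe sets with 1 symbol, the shares were 3.16% upwards and 1.72% downwards. In each of the 5 genes with more than 1 probe set, all pointed the same way. For Dkk1, Frzb and Sostdc1 every probe set passed 2-fold, for Sfrp1 only some did, and for Dkk3 none did. Sfrp4 and Wif1 passed on 1 probe set each and so have no second reading.

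**Figure D2:**
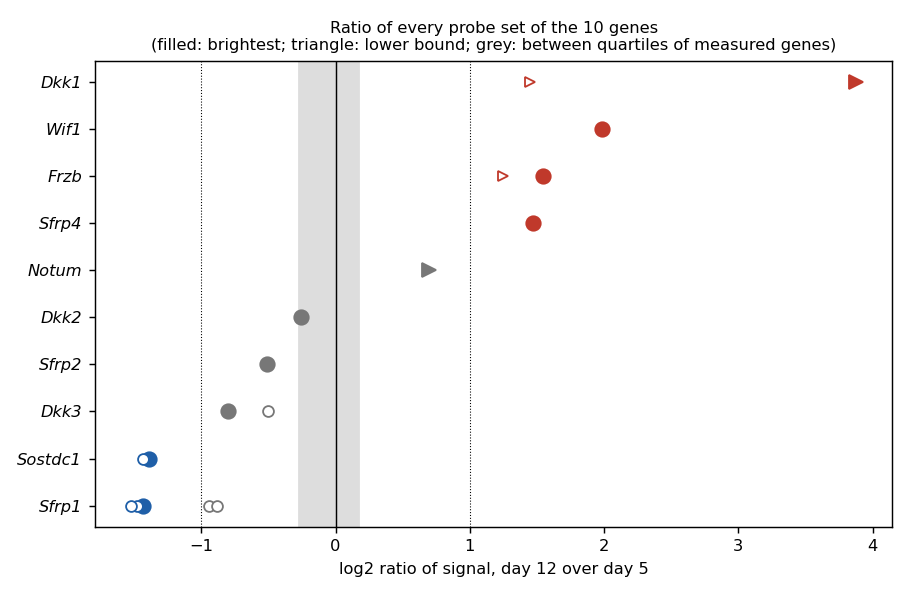
Log2 ratio of signal at day 12 over day 5 for every probe set of the 10 genes, with filled marks for the brightest, triangles for lower bounds, dotted lines at 2-fold and a grey band between the quartiles of all measured genes (-0.27 to 0.17). Only Dkk2 lies inside the band; the 2 Dkk1 marks, at 1.45 and 3.88, are bounds from 1 shared floor value, and their distance shows only the day 12 signals.

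Large ratios are more frequent among dim genes, so each member was also set beside genes of like mean log2 signal over the 2 arrays. When the measured genes were ordered by it and cut into 4 equal groups, Dkk1 and Notum fell in the dimmest. In that group 4.27% of 2620 genes were at least 2-fold higher. Values were not raised to the floor for this order, so the day 5 reading of 14.5 lowers the place of Dkk1. Sfrp4, Frzb, Wif1, Sostdc1 and Dkk2 fell in the next, in which 3.66% passed 2-fold upwards and 1.79% downwards. Sfrp1 fell in the third, with 1.37% at least 2-fold lower. Dkk3 and Sfrp2 fell in the brightest, with 0.802% at least 2-fold lower. The share of genes past 2-fold was smaller in the brightest group than in the dimmest, in both directions.

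Direction held for all 10 genes under every other scaling and floor tried, in so far as the gene was measured. Side of the 2-fold threshold held for 9 of them, the exception being Sfrp4 with the higher floor. Dkk1 moved most in size, from 1.91 (log2 ratio) when the floor was the 75th percentile to 5.12 when it was the 50th, because its ratio is set by the floor. Sfrp1 moved least among the genes past 2-fold, from -1.43 to -1.37.

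**Figure D3:**
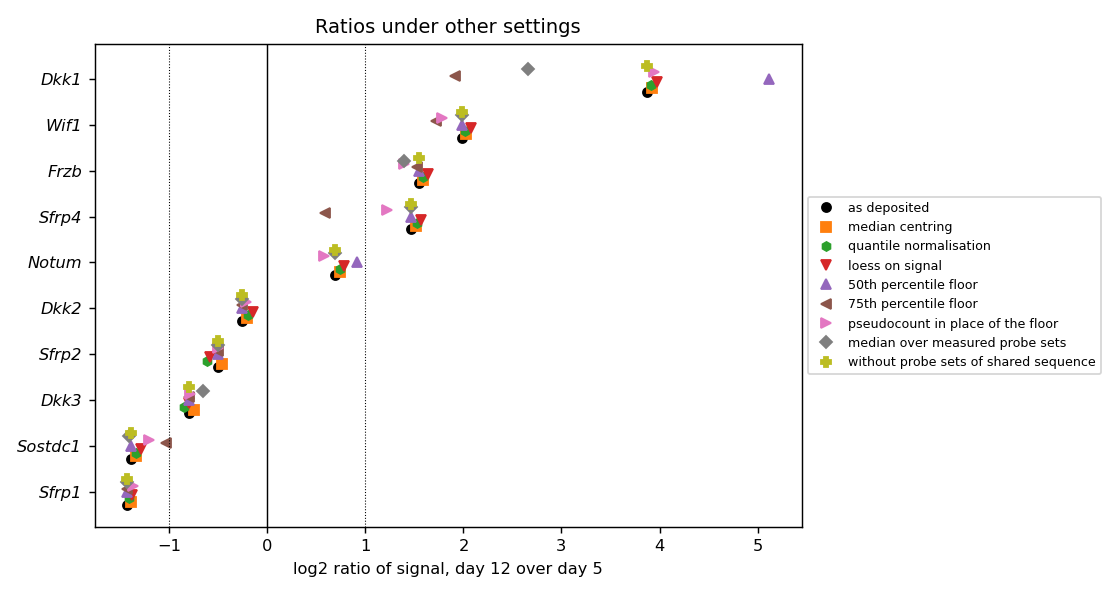
Log2 ratio of each of the 10 genes as deposited (black) and under 8 other settings (colours), with dotted lines at 2-fold. No gene crosses 0; Sfrp4 crosses the 2-fold line once, at 0.59, and Dkk1 spreads from 1.91 to 5.12.

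The proteins that the antagonists bind or act with were read next, from lists of the Wnt pathway. Among all measured genes 3.56% passed 2-fold upwards and 1.73% downwards. A short list with no gene past 2-fold is therefore near those shares. Among the coreceptors, Lrp4, which presents sclerostin to the other LRP proteins, had signals of 147.2 and 444.0, 3.02-fold higher at day 12. Lrp6, the coreceptor that DKK1 occupies, had 514.5 and 519.9, a log2 ratio of 0.01. Kremen1, a second DKK1 receptor, had 316.5 and 535.3, a log2 ratio of 0.76. Lrp5 lay below the floor on both arrays, and Kremen2 was not analysed here. So 1 of 3 measured members of this list passed 2-fold upwards and none downwards.

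Of 13 measured Frizzled and related Wnt receptors, 1 passed 2-fold upwards and 1 downwards. Fzd5 went from 612.8 to 1745, 2.85-fold higher, and its other probe set gave a log2 ratio of 1.03. Fzd9, a receptor needed for normal bone formation in mice, went from 404.0 to 98.6, 4.10-fold lower. Fzd1 and Ryk were nearest to no difference, with log2 ratios of -0.07 and 0.02.

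Few Wnt ligands were measured, 5 of 19 on the array, and none of the 5 passed 2-fold. Wnt5a, which mostly signals without β-catenin, had signals of 427.3 and 391.8, and Wnt5b had 85.9 and 110.4. Wnt7b, an osteogenic ligand, was near the floor at 46.0 and 67.4. None of 4 measured R-spondins and Lgr receptors, which amplify Wnt signals, passed 2-fold; Lgr4 had a log2 ratio of -0.27, Rspo2 of -0.65 and Rspo3 of -0.69, while Lgr5 was higher, at 154.2 and 276.1 (a log2 ratio of 0.84). Of 6 measured genes for Wnt release and for glypicans, surface proteoglycans that bind Wnt proteins and NOTUM, Gpc1 went from 1623 to 3567, 2.20-fold higher. Wls, the carrier that brings Wnt proteins to the surface, had a log2 ratio of -0.02, and Gpc6 of -0.22. Porcn, the enzyme that adds the lipid NOTUM removes, had signals of 122.2 and 234.4, 1.92-fold higher, and passed 2-fold after loess.

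Inside the cell, none of 14 measured genes of the β-catenin core passed 2-fold, and their median log2 ratio was -0.06. For so short a list this is near the shares over all measured genes, 3.56% upwards and 1.73% downwards. Dvl2 had a log2 ratio of -0.03 and Gsk3b of 0.04. Of 13 measured Wnt target genes, 1 passed 2-fold upwards and none downwards, with a median of 0.01. That gene, Tnfrsf19, stood just past the threshold at 2.03-fold, and fell short of it under quantile normalisation and with the median over its probe sets. Axin2, a feedback inhibitor widely read as a gauge of β-catenin activity, had signals of 102.2 and 103.0, while Gja1, the connexin of bone cells, had a log2 ratio of -0.06. Both were named because they lay nearest to 0 in the list. Of the 13 targets, 7 had a log2 ratio above 0, among them Myc at 0.92, Ccn4 at 0.88 and Fosl1 at 0.76. The lowest was Nkd1 at -0.46. Activity of β-catenin was not tested.

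Other inhibitors of the pathway, outside the 10, did not pass 2-fold in any of 7 measured genes, with a median of -0.16. Igfbp4 had a log2 ratio of -0.06 and Apcdd1 of -0.16. Sost, the gene of sclerostin and a product of osteocytes, had signals of 0.98 and 41.5, both below the floor, as were the further relatives Dkk4 and Sfrp5. With the 50th percentile floor, 2 of the 10 genes of this list then measured were at least 2-fold higher, Sost among them. At that floor 4.19% of all measured genes were.

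**Figure D4:**
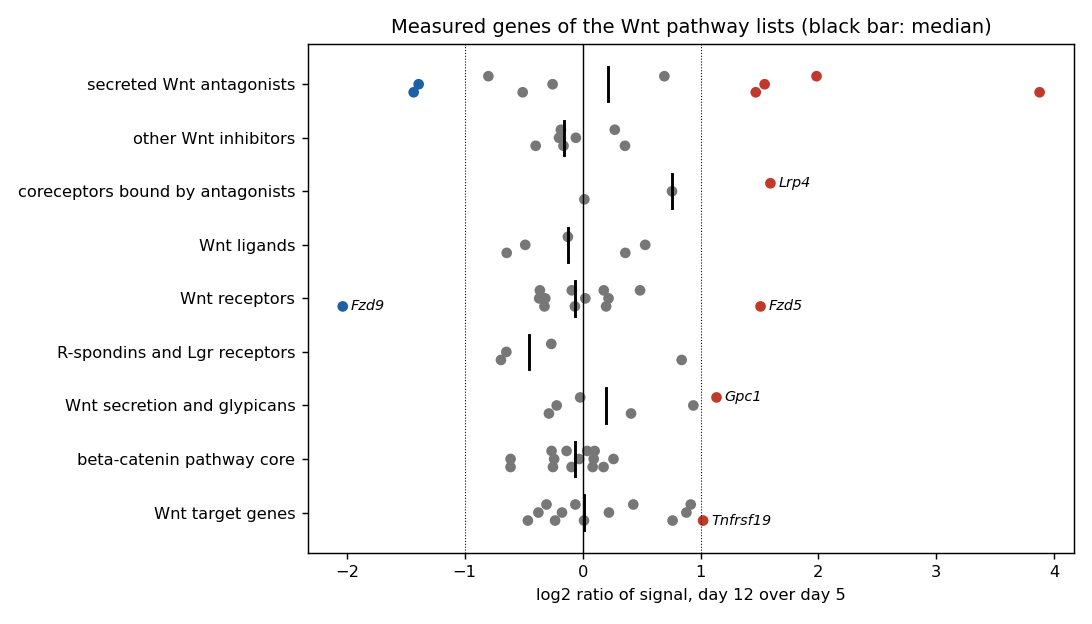
Log2 ratio of day 12 over day 5 for each measured gene of 9 Wnt pathway lists, by brightest probe set, with a black bar for the median of the list; points within a row are shifted up or down only to keep them apart. Red and blue mark genes past 2-fold, with names beside those outside the 10 antagonists. The antagonists hold 6 of the 11 marked genes. Over all measured genes 3.56% passed 2-fold upwards and 1.73% downwards. The antagonists and the other lists were chosen with earlier results of these data known, so this count is not a test.

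Markers of cell types and of culture state moved between the same arrays. Among all measured genes 3.56% passed 2-fold upwards and 1.73% downwards, and the marker lists were chosen with earlier results of these data known. Sums given for a list add the signals of its measured genes, so they weigh the brightest probe sets most. Of the markers named below, Phex, Mepe, Matn1, Snorc, Ucma, Egln3 and Ankrd37 were below the floor on 1 array. Their ratios are bounds, and their order moves with the floor. All 7 measured osteoblast markers were above the floor on both arrays. Of these 5 were at least 2-fold higher at day 12 (Ifitm5, Ibsp and Alpl most), and their summed signal was 22726 at day 5 and 46005 at day 12. Of 8 measured osteocyte markers 4 were at least 2-fold higher (Dmp1, Phex and Mepe most) and 1, Fbln7, was 3.21-fold lower. Pdpn, Cd44 and Capg were lower by less than 2-fold, so only 4 of the 8 had a log2 ratio above 0. The 8 summed to 9893 and 11746, with Sost and Fgf23 below the floor. Of 16 chondrocyte markers 10 were at least 2-fold lower and none higher (Matn1, Snorc and Ucma most), summing to 39660 and 18225. Of 11 measured myeloid markers 10 were higher (Tyrobp, Fcer1g and Cd68 most), summing to 4956 and 12128, while Itgam, the gene of CD11b, read 14.6 and 35.4, below the floor. All 8 hypoxia markers were at least 2-fold higher (Egln3, Ndufa4l2 and Ankrd37 most), summing to 2039 and 19825. None of 6 endothelial markers was above the floor. Muscle and mural markers (3 measured) and proliferation markers (5 measured) did not pass 2-fold. Of 5 adipocyte markers Lpl was at least 2-fold higher, while the others were lower by less than 2-fold, with a list median of -0.54. Of 4 fibroblast and tendon markers, all below 0, Dpt was at least 2-fold lower. Some of these counts, and the number of genes measured, changed with the setting. Across the 2-fold settings 8 to 10 myeloid and 3 to 5 osteocyte markers were higher, and 8 to 11 chondrocyte markers were lower. These lists moved beside the antagonists, and their part in the antagonists' ratios was not tested.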

How the data were processed

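RNA was labelled with biotin and hybridised to Affymetrix arrays, per the labels' protocols. The authors deposited signal intensity on a linear scale, made with GCOS 1.4 and MAS5 per the submitters' processing notes. The mean after trimming 2% at each end was 200.0 on both arrays, so a change in total RNA per cell cannot be seen. No detection calls were used, and a genome build for the arrays is not given in the sources used here. Gene names came from the platform's annotation, which can be old, with symbols updated through Entrez numbers for 34741 of 34945 probe sets with 1 symbol; 932 had several and 9160 none, and these were not named.

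The brightest probe set by mean log2 signal stood for a gene. A gene was measured if at or above the 60th percentile of 1 array, and called at 2-fold. The number of arrays, 1 a day, limits the precision. Alternatives were median centring, quantile normalisation, loess (span 0.3), floors at the 50th and 75th percentiles, a pseudocount of 32, the median of all probe sets of a gene, omission of those with shared sequence, and 1.5-fold and 3-fold thresholds; restriction to genes above both floors was chosen after seeing the data.

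The members and lists were chosen with earlier results of these data known. The text names all members, pathway genes past 2-fold and the pair nearest to 0 in each list, and up to 3 genes of each marker list. Lrp5, Wnt7b, Rspo3, Lgr5, Porcn, Dkk4, Sfrp5, Fgf23, Itgam, Myc, Ccn4, Fosl1, Nkd1, Fbln7, Pdpn, Cd44 and Capg were named after their values were seen. The code was tested on simulated data. Python 3.11.15, numpy 2.4.6, pandas 2.3.3 and statsmodels 0.14.6 were used.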

Additional observations from a re-analysis of the deposited data

How the results depend on the processing

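The count of antagonists past 2-fold, 4 upwards and 2 downwards, was the same, with the same genes, under median centring, quantile normalisation, loess, the 50th percentile floor, a pseudocount, the median over probe sets and without probe sets of shared sequence. With the 75th percentile floor it was 3 and 2, without Sfrp4, and Notum was not measured. It was 5 and 3 at 1.5-fold, adding Notum and Dkk3, and 2 (Dkk1 and Wif1) and 0 at 3-fold. Over genes above both floors it was 3 and 2. The median log2 ratio, 0.22, was -0.25 with the 75th percentile floor and -0.38 over genes above both floors, where members with bounds drop out. The median of all genes shifted by less than 0.1 under any scaling. Dim signal limits Dkk1 at day 5 and Notum. No paired analysis was possible because each day has 1 array.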
